A study of Mus musculus with 22 samples.

Results

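The last exons described here are those of intermediate length, at least 1000 and under 2500 bases from start to end, among the transcripts whose polyadenylation was measured in mouse colon epithelium. There were 2138 of them among 5559 transcripts (38.5%), from 2012 genes and 2137 distinct regions, with a median span of 1574.5 bases. The remaining transcripts had shorter (2262) or longer (1159) regions. The rule uses the length of the region alone. Although the region is often called a 3′ UTR, its start was identical to that of the annotated last exon in 1857 of the 1897 members that could be matched to GENCODE on mm10, so that it also holds the end of the coding sequence.

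RNA came from 22 libraries of epithelial cells sorted by flow cytometry from the colon of untreated wild type male C57BL/6N mice aged 5 to 7 weeks. All gates were Cd31-, Cd45-, Epcam+ and live. Stem cells (Stem, n = 3) were Cd44highest, Cd24low and Ckit-, absorptive progenitors (AbsPro, n = 3) Cd44med/hi, Cd24low and Ckit-, and the gate of secretory progenitors, deep crypt secretory and goblet cells (SecPDG, n = 4) Cd44hi, Cd24med and Ckitmed. Tuft cells (Tuft, n = 5) were Ckit+ and Cd24hi, enterocytes (n = 5) Cd44low/- and Cd24-, and enteroendocrine cells (EEC, n = 2) Cd44low/- and Cd24+. By the study's methods, the replicates came from independent mice and sorts, and libraries other than those of Stem and AbsPro pooled several mice. Each of 5 tables set 1 cell type against the same 3 stem cell libraries, so the 5 comparisons are not independent.

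Most mammalian genes can end their transcripts at more than one site. Cleavage factors recognise a signal hexamer, most often AAUAAA, a short distance upstream of the cut, and a poly(A) tail is then added. Use of a proximal site gives a shorter 3′ UTR, which can lack binding sites for microRNAs and RNA-binding proteins, while use of the distal site retains them. Proliferating cells are known for shorter 3′ UTRs in many systems. The measure here is the PDUI, the estimated share of a transcript's molecules that run to the distal site, from 0 (all proximal) to 1 (all distal).

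The sequences below show what stands at the annotated transcript end and at the predicted proximal site of 5 members: those with a sequence match that passed the test of distal site use, the hedgehog ligand Ihh, and the junction proteins Cdh1 and Cldn3, which were distal in every library. Each is a 30-base stretch of the GENCODE transcript on mm10, 5′ to 3′, with the signal hexamer AATAAA or ATTAAA in capitals. The first 5 lie at the annotated end of the transcript, which for Cldn3 is past the end of the measured region (chr5:134986214-134987433), and the last 5 end at the proximal site that was predicted in the table named.
Zfp110 end, chr7:12850548-12850577, + strand: accttccactAATAAAcagccattgtcgta
Aldh18a1 end, chr19:40550257-40550286, - strand: tttgagaAATAAAattcttataaaagccca
Ihh end, chr1:74945315-74945344, - strand: ttgtAATAAAaattatttaagttgttagaa
Cdh1 end, chr8:106670217-106670246, + strand: gaattttATTAAAgagttttgttaaactgt
Cldn3 end, chr5:134987443-134987472, + strand: atttttcAATAAAagtctttcgttttttgc
Zfp110 site in the SecPDG table, chr7:12848634-12848663, + strand: aagaccaaactagtcgtcacaaaagccagg
Aldh18a1 site in the Tuft table, chr19:40551128-40551157, - strand: tttcagctgagaggtgccaggcagtcggga
Ihh site in the SecPDG table, chr1:74946495-74946524, - strand: tcggctggcgctcacgcctgcccacctgct
Cdh1 site in the AbsPro table, chr8:106668578-106668607, + strand: agctggcggacatgtacggcggtggtgagg
Cldn3 site in the AbsPro table, chr5:134986386-134986415, + strand: gatccctggtctcccagtcccctgagctgc

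All 5 ends carried a hexamer and none of the 5 predicted proximal sites did, also when 50 bases were searched. The same held for the members as a whole. Of the 1243 members whose region ended within 10 bases of the annotated end, 84.6% held AATAAA or ATTAAA on the transcript strand in the last 50 bases (85.7% of 3208 regions of any length). In the 50 bases before the predicted proximal site the share was 4.97% of 1729 in the AbsPro table, 5.26% of 1464 in SecPDG, 5.32% of 1108 in Tuft, 6.18% of 858 in Enterocyte and 5.38% of 446 in EEC. Among all 63972 windows of 50 bases in these last exons it was 5.35%, so windows before predicted proximal sites held a hexamer about as often as any window. With 100 bases on either side of the site, the share was 15.7% to 20.1%, against 18.0% of all windows of 200 bases. These are descriptions of letters in a window, and a window without a match says only that these letters are absent from it.

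**Figure D1:**
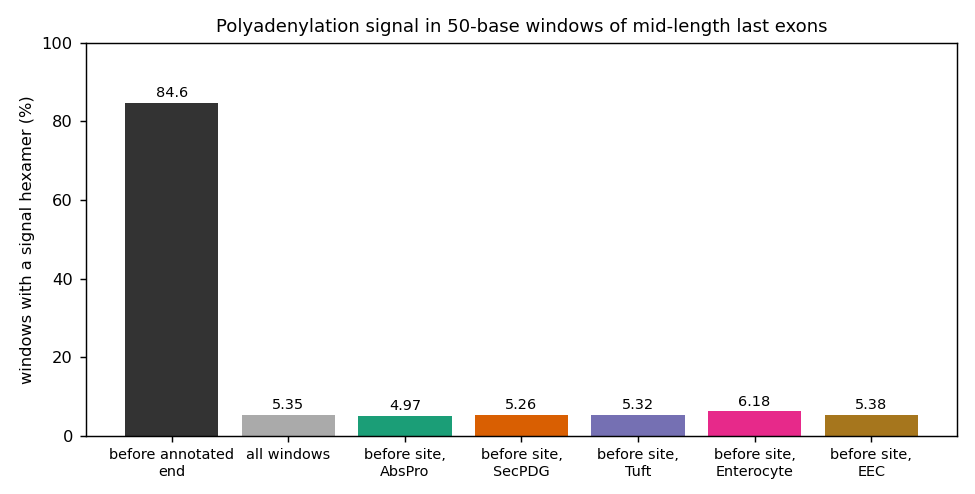
Share of 50-base windows (percent, vertical axis) that held AATAAA or ATTAAA in mid-length last exons, before the annotated end, over all windows, and before the proximal site predicted in each of the 5 tables. The share is 84.6% at the annotated end and between 4.97% and 6.18% before predicted proximal sites, beside 5.35% for all windows.

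The predicted proximal site lay near the start of the region. Its median distance from the start was 324 bases in the AbsPro table, 332 in SecPDG, 314 in Tuft, 304.5 in Enterocyte and 283 in EEC. In 28.4% to 33.4% of the members it stood at exactly 201 bases, the smallest distance found in any table. Shorter regions stood at that distance more often (48.7% to 54.0%) and longer ones less often (19.7% to 27.0%). In 364 of 1750 members with an annotated stop codon (20.8%) the site of the AbsPro table lay before the end of the coding sequence, and in the EEC table this was 121 of 449 (26.9%). Levels did not follow these classes closely: in the AbsPro table the median stem cell PDUI was 0.363 with the site at 201 bases and 0.337 with the site farther along, and 0.353 with the site in the coding part against 0.340 after the stop codon.

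The site was predicted anew in each table, which bears on every comparison of values between tables. Between 47.6% and 63.3% of the members shared by a pair of tables had the same site in both, and 78.7% to 89.0% had it within 50 bases. Where the site was the same, the values of the stem cell libraries were the same. Where it lay over 50 bases apart, the median difference between the stem cell means of the same transcript was 0.05 to 0.0883, and 4.55% to 19.0% of these transcripts differed by more than 0.25. An example is Zfp110, whose mean in the 3 stem cell libraries was 0.803 with a site 1158 bases from the start and 1.00 with a site at 266 bases.

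Distal site use covered the whole scale and was low on the median. Over members with a value in every library of a table, library medians were 0.30 to 0.36 in stem cells of the AbsPro table and 0.30 to 0.37 in AbsPro. The lowest medians of SecPDG, Tuft and enterocyte libraries were 0.29, 0.32 and 0.27. Some libraries stood lower than others of their own type: Stem 1 was at 0.30 beside 0.34 and 0.36, AbsPro 2 at 0.30 beside 0.36 and 0.37, and EEC 1 at 0.14 beside 0.255 for EEC 2. EEC 1 also had a value for 273 of the 509 members of its table, against 464 in EEC 2 and 489 to 499 in the stem cell libraries.

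**Figure D2:**
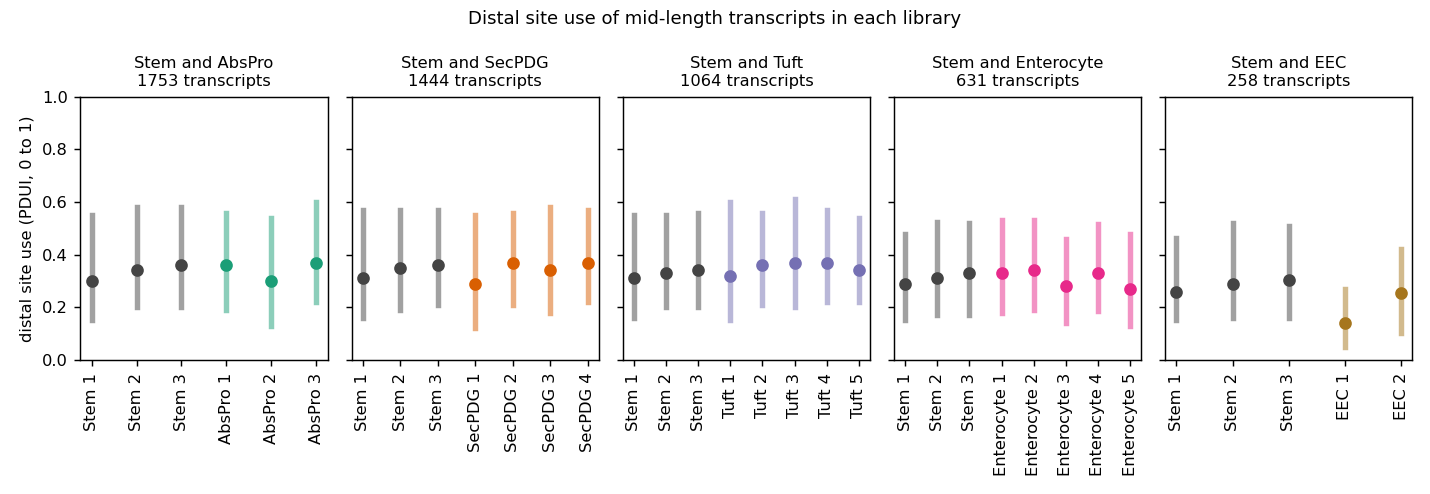
Median (point) and interquartile range (bar) of the PDUI, 0 to 1, over mid-length transcripts with a value in every library of a table, for the 3 stem cell libraries and those of the other cell type. Library medians lie between 0.27 and 0.37 outside the EEC table, and EEC 1 lies at 0.14.

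Genes counted from the same libraries carried the markers of their gates, with overlaps between cell types. Summed normalised counts of 6 stem cell markers were 14488 to 18943 in Stem and at most 8809 elsewhere. Summed normalised counts of 6 tuft cell markers were 27834 to 74806 in Tuft against 52.1 to 99.0 in Stem, at most 1029 in AbsPro, SecPDG and enterocytes, and 4375 and 9560 in EEC. The 6 EEC markers summed to 631570 to 1812600 in EEC and to at most 28644 elsewhere. The 6 SecPDG markers, among them the goblet cell mucin Muc2, reached 508270 to 1076800 in Tuft libraries, as high as the 531540 to 1474600 of SecPDG. The SecPDG markers also summed to 40275 to 127590 in AbsPro and 71033 to 230240 in enterocytes, beside 13040 to 22554 in Stem. The 4 endothelial markers summed to 840 and 1595 in EEC, 360 to 875 in enterocytes, 92.8 to 471 in Tuft and 10.1 to 34.8 in Stem. Sums of the 6 stromal markers were 304 and 2189 in EEC, 435 to 1245 in enterocytes, 30.9 to 1302 in AbsPro and 37.7 to 203 in Stem. Those of the 7 immune markers were 1448 to 3456 in Tuft and 989 to 1900 in Stem. The 6 markers of absorptive progenitors and enterocytes summed to 22710 and 151340 in the EEC libraries, beside 74715 to 115300 in AbsPro and 51222 to 76104 in enterocytes. The part of these overlaps in the polyadenylation values was not tested. Reads counted on genes differed by cell type, with 19900282 to 22462518 in Stem, 5950619 to 12966128 in enterocytes, and 4122122 and 13132315 in EEC. Entries that name no gene made up 56.9% to 58.6% of a Stem count file. In enterocytes they made up 72.7% to 86.0%, and in EEC 70.7% and 91.6%. The part of depth in the differences between cell types was not tested.

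A group of members had low distal use in every library. Taking the 142 members that were in all 5 tables, had sites within 50 bases of each other and had a value in all 22 libraries, 23 were at or below 0.2 in every library. Among them were the ribosomal protein gene Rpl21 and the elongation factor subunit Eef1b2, both between 0 and 0.01 in all 22 libraries. Pdia3, a protein disulfide isomerase of the endoplasmic reticulum, was between 0.02 and 0.05, and the RNA-binding protein Ybx1 between 0.01 and 0.08. For Rpl21, Eef1b2 and Pdia3 the predicted site stood at the smallest distance, 201 bases from the start, in every table. Single libraries stood apart in some of the 23: Tkt, the transketolase gene, was at 0.14 in 1 enterocyte library and 0.11 in EEC 1, and between 0 and 0.03 elsewhere.

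Only 2 of the 142 were at or above 0.8 in every library. They were Cdh1, the E-cadherin of adherens junctions, and Cldn3, a claudin of tight junctions, and both were at 1.00 in all 22 libraries. The predicted site of both stood at the smallest distance, 201 bases from the start, in every table. Whether a PDUI at the limit of the scale reflects where the site was placed was not tested. The transmembrane mucin Muc13 came next, at 0.77 to 1.00 with a median of 0.945. The predicted proximal sites of both junction genes, shown above, have no hexamer. This is not particular to them: over the 5 comparisons, only 4.97% to 6.18% of the members' predicted proximal sites had one in the 50 bases before. Whether the missing hexamer bears on their level was not tested.

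Between these extremes the libraries of a single transcript spread widely. The median range over 22 libraries was 0.31, and 36 of the 142 had a range over 0.5. EEC 1 held the lowest value in 23 of those 36 and a highest value in 4. Without EEC 1 the median range was 0.28, and 29 of the 36 still had a range over 0.5. Srsf11, a splicing factor, showed the widest range, being between 0.10 and 0.39 in the 20 libraries other than EEC, at 0 in EEC 1 and at 0.99 in EEC 2.

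**Figure D3:**
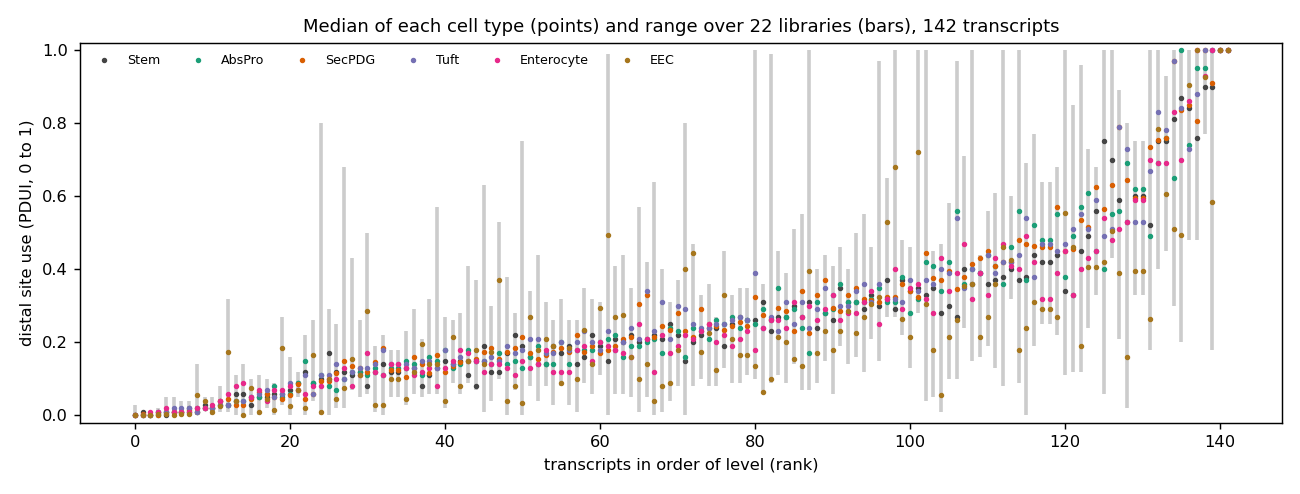
PDUI (0 to 1, vertical axis) of the 142 members measured in all 22 libraries at like sites, in order of level: points are the medians of the 6 cell types and grey bars run from the lowest to the highest library. At the left, 23 transcripts stay at or below 0.2 in every library, Cdh1 and Cldn3 lie at 1.00 at the right, and 36 bars are longer than 0.5.

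The spread between libraries of a cell type was as large as the difference between cell types. Among the 1753 members with a value in every library of the AbsPro table, the median SD was 0.0954 in stem cells and 0.0954 in AbsPro, and the median size of the difference of means was 0.0600. In SecPDG these were 0.0896, 0.0986 and 0.0650 (1444 members), in Tuft 0.0833, 0.104 and 0.0613 (1064), and in enterocytes 0.0666, 0.0752 and 0.0453 (631). In EEC the difference, 0.0983, was near the SD of the 2 EEC libraries, 0.0990, and larger than that of stem cells, 0.0569 (258). Both were smaller in genes with more RNA: in the AbsPro table the stem cell SD was 0.106 below a mean of 1000 normalised counts of the gene and 0.0608 from 4000 upward, and the difference of means 0.0733 and 0.0417.

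**Figure D4:**
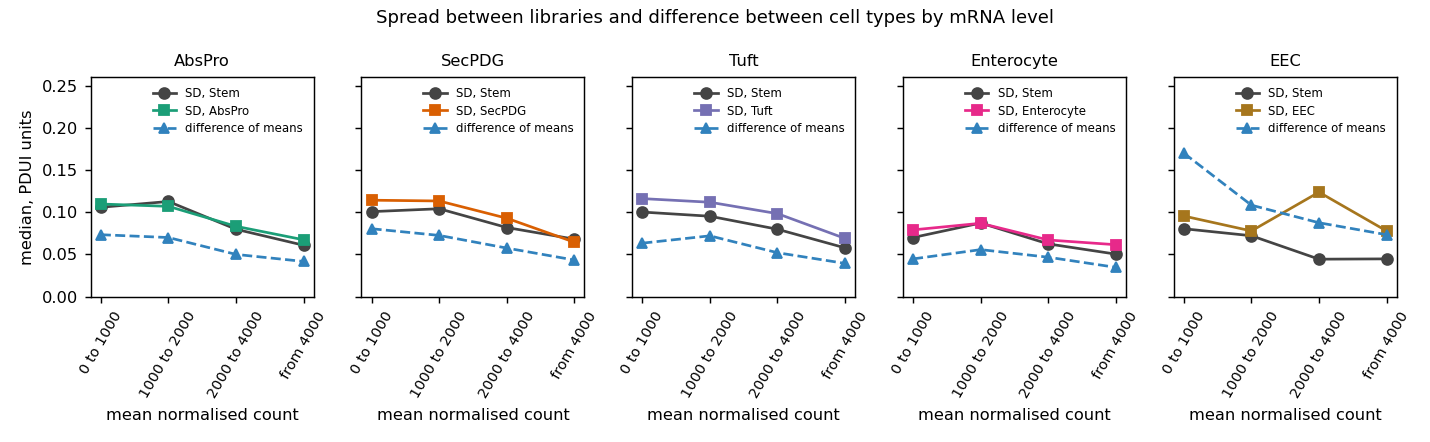
Median SD between libraries of a cell type and median size of the difference between cell type means (PDUI units) in 4 classes of the gene's mean normalised count over stem cells and the compared type, for each of the 5 tables. In AbsPro, SecPDG, Tuft and enterocytes the difference between cell types lies below both SDs in every class, and the values are lowest from 4000 counts upward.

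The first question of the design was whether ends change as stem cells become absorptive or secretory progenitors. Against AbsPro, no mid-length transcript passed limma on the log2 ratio of distal to proximal use at an adjusted p under 0.05 in either direction, of 1932 tested (0% of all 4976 transcripts, each way). At an unadjusted p under 0.05 there were 76, or 3.93%, beside 3.94% of all transcripts. The mean was higher in AbsPro for 851 and lower for 841 of 1753 members. All AbsPro libraries lay above all stem cell libraries for 76 members and below for 53, which is 4.34% and 3.02%, beside 4.24% and 3.3% of all 4484 transcripts with complete values.

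Against SecPDG, 1 of 1619 transcripts had lower distal use by limma (0.0237% of all 4223 transcripts) and none higher (0%). At an unadjusted p under 0.05 there were 86, or 5.31%, beside 4.85% of all. Libraries did not overlap for 49 members in the higher and 45 in the lower direction of 1444, that is 3.39% and 3.12%, beside 3.13% and 2.87% of all 3733. The shares of members were thus close to those of all transcripts in both progenitor comparisons.

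The transcript that passed was Zfp110 (NM_022981), a zinc finger gene at chr7:12848397-12850586 on the + strand of mm10. Its PDUI was 1.00, 1.00 and 1.00 in stem cells and 0.59, 0.69, 0.53 and 0.58 in SecPDG. Every SecPDG library lay below every stem cell library, with a mean of 0.598 ± 0.0670 (SD, n = 4) and a fall of the log2 ratio (change -6.09, SE 0.28, limma adjusted p = 0.00263). The stem cell values stood at the upper limit of the scale with no spread, and the site lay in the coding part. With the other site predicted in the AbsPro table the stem cell libraries of Zfp110 averaged 0.803 ± 0.238 (SD, n = 3) and AbsPro 0.753 ± 0.225 (SD, n = 3). Its mRNA level in SecPDG differed from stem cells by a log2 fold change of 0.48 (SE 0.32, edgeR adjusted p = 0.395).

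Tuft cells had 1 transcript higher and 1 lower of 1259 (0.0307% of all 3257 each way). At an unadjusted p under 0.05 there were 66, or 5.24%, beside 5.19% of all. More members had non-overlapping libraries above stem cells (43 of 1064, 4.04%) than below (15, 1.41%), and all transcripts showed 3.53% and 1.18%. The median difference of means was 0.0147 in members, beside 0.01 in shorter and 0.0163 in longer regions.

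Aldh18a1 (NM_153554), which encodes an enzyme of proline synthesis, lies at chr19:40550257-40551329 on the - strand. Its PDUI was 0.60, 0.69 and 0.86 in stem cells and 1.00 in all 5 Tuft libraries. No Tuft library overlapped stem cells, and the log2 ratio was higher by 5.25 (SE 0.43, limma adjusted p = 0.0140). It was also 1.00 in all 4 SecPDG libraries, beside the same stem cell libraries, where the limma adjusted p was 0.0732. The site stood at the smallest distance, 201 bases.

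Tmem250-ps (NM_001256521), which its symbol marks as a pseudogene, lies at chr2:26136808-26138913 on the - strand. Stem cells were at 1.00, 1.00 and 1.00 and Tuft at 0.61, 0.67, 0.37, 0.78 and 0.64. All Tuft libraries lay lower, and the log2 ratio change was -5.96 (SE 0.54, limma adjusted p = 0.0140). A second mid-length transcript of this gene in the Tuft table, NM_001256522, was not among those that passed. In each of the 3 transcripts that passed, 1 cell type was at 1.00 in every library and so had an SD of 0. When the PDUI itself was tested in place of its log2 ratio, none of them passed. Without Stem 2, Tuft 1 or Tuft 2, limma called no member in the Tuft comparison, while Zfp110 passed in SecPDG without any 1 library (adjusted p from 0.00616 to 0.0241).

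Enterocytes had no called transcript of 936 in either direction (0.0408% of all 2449 higher, 0% lower), and 88 at an unadjusted p under 0.05 (9.4%, beside 8.53% of all). Their libraries did not overlap for 20 members above and 15 below stem cells of 631, 3.17% and 2.38%, beside 3.59% and 2.39% of all 1672. EEC had none of 260 (0% of all 735, each way) and 45 at an unadjusted p under 0.05 (17.3%, beside 13.7%). Here 84 of 258 members lay below all stem cell libraries and 15 above, 32.6% and 5.81%, beside 27.6% and 4.74% of all 718. The median difference of means was -0.0642 in EEC members, and 185 of 258 were lower. Shorter and longer regions leaned the same way, with medians of -0.0433 (206 of 341 lower) and -0.0567 (87 of 119 lower). EEC 1, the library with the fewest values and the lowest median, is 1 of only 2 EEC libraries: with it left out limma called 11 of 458 members (2.4%, beside 3.59% of all 1225 transcripts), and with EEC 2 left out 50 of 272 (18.4%, beside 23.1% of all 767). With 1 EEC library left, that library is assumed to vary like the stem cell libraries, so these counts hold no spread between EEC libraries.

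Ihh, the Indian hedgehog ligand that differentiating colon epithelium sends to the stroma, is the member the study singled out for its end, at chr1:74945315-74946747 on the - strand. In stem cells of the SecPDG table it was 0.37, 0.41 and 0.45, and in SecPDG 0.54, 0.62, 0.80 and 0.70. All 4 SecPDG libraries were higher, with a log2 ratio change of 1.53 (SE 0.45, unadjusted p = 0.0141 and adjusted p = 0.847, limma), which does not pass over all transcripts. In AbsPro it was 0.66, 0.35 and 0.47, which overlapped stem cells (0.37, 0.41 and 0.44).

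The other cell types differed in where Ihh lay relative to stem cells. Tuft libraries were at 0.21, 0.57, 0.25, 0.39 and 0.60, on both sides of stem cells. The 4 enterocyte libraries with a value were at 0.52, 0.69, 0.68 and 0.76. All lay above the stem cell values of 0.37, 0.40 and 0.43 (limma unadjusted p = 0.00595, adjusted p = 0.426). Their mean was higher than that of stem cells by 0.2625, beside 0.255 in SecPDG. The EEC libraries were at 0.95 and 0.35. Its predicted site moved between 212 and 252 bases from the start over the 5 tables and lay in the coding part in each. Its mRNA level passed the test in none of the 5 comparisons (edgeR adjusted p from 0.182 to 0.635).

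Members with the widest separation between AbsPro and stem cells are given next by value, since none passed limma (adjusted p = 0.922 for each). Pim3, a serine/threonine kinase, was 0.20, 0.37 and 0.50 in stem cells and 0.77, 0.83 and 0.77 in AbsPro. Baz1b, a bromodomain protein of chromatin, was 0.33, 0.46 and 0.64 against 0.82, 0.98 and 0.93. Prag1 and Cacfd1 had the largest differences of means, 0.483 and 0.460, but each had 1 library near the other cell type, 0.80 in stem cells for Prag1 and 0.43 in AbsPro for Cacfd1. Pim3 was the most even of them, with an SD of 0.0346 in AbsPro.

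In the lower direction Atxn7l1 was 0.91, 0.55 and 0.40 in stem cells and 0.19, 0.09 and 0.16 in AbsPro. In SecPDG it was 0.15, 0.21, 0.12 and 0.24 beside the same stem cell libraries. Rexo4, an RNA exonuclease, was 1.00, 0.88 and 1.00 against 0.72, 0.10 and 0.50 in AbsPro, with a site 400 bases from the start. In the SecPDG table, with a site at 557 bases, it was 1.00 in the 3 stem cell libraries and 0.40, 0.49, 0.55 and 0.86 in SecPDG (limma adjusted p = 0.112). Both genes lay lower in both progenitor types, but those comparisons share stem cell libraries. Dcakd and Ncln, the latter a protein of the endoplasmic reticulum membrane, had differences of -0.427 and -0.420.

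In SecPDG the widest separations outside Zfp110 were of the same size. Prkaca, the catalytic subunit of protein kinase A, was 1.00 in the 3 stem cell libraries and 0.32, 0.75, 0.70 and 0.56 in SecPDG (limma adjusted p = 0.0847). Ddx17, an RNA helicase, was 0.39, 0.64 and 1.00 against 0.02, 0.31, 0.18 and 0.37. The regulatory subunit of protein phosphatase 2A Ppp2r5d, which sits at the lower limit of span at 1000 bases, was 0.17, 0.16 and 0.18 against 0.50, 0.37, 0.74 and 0.31. A second such subunit, Ppp2r5a, was 0.38, 0.62 and 0.55 against 1.00, 0.80, 0.70 and 0.87. Both phosphatase subunits thus lay higher in every SecPDG library, without passing the test (adjusted p = 0.847).

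Tvp23b, a Golgi protein, lay higher in SecPDG for both readouts. Its PDUI was 0.17, 0.68 and 0.40 in stem cells and 0.86, 0.72, 0.92 and 0.74 in SecPDG (limma adjusted p = 0.847), and its mRNA level rose by a log2 fold change of 1.52 (SE 0.34, edgeR adjusted p = 0.00398). In bulk RNA, fewer cells of a type and less RNA per cell cannot be told apart.

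In Tuft the signal recognition particle receptor subunit Srpr was 0.17, 0.36 and 0.67 in stem cells and 0.82, 0.71, 0.72, 0.87 and 0.75 in Tuft. Bsdc1 was 0.33, 0.37 and 0.39 against 0.62, 0.62, 0.71, 0.80 and 0.66 (limma adjusted p = 0.299). The site was at 281 bases in the Tuft table. In SecPDG, with a site at 708 bases, the mean was 0.348 ± 0.0275 (SD, n = 4) beside 0.623 ± 0.168 (SD, n = 3) in the same stem cells, and the part of the site and of the cell type in this cannot be told apart. Nrp2, a neuropilin receptor, was 0.66, 0.78 and 0.68 against 0.50, 0.36, 0.33, 0.32 and 0.31.

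In enterocytes Ifngr2, a subunit of the interferon gamma receptor, was 0.91, 0.76 and 0.60 in stem cells and 0.32, 0.53, 0.42, 0.57 and 0.31 in enterocytes. It was also lower without overlap in AbsPro (mean 0.507), SecPDG (0.420) and Tuft (0.462), where the same stem cell libraries averaged 0.760, 0.763 and 0.760. Every enterocyte library lay below every stem cell library, and it did not pass limma (adjusted p = 0.510). Ccng2, a cyclin known for growth arrest, lay above, at 0, 0.12 and 0.26 against 0.52, 0.33, 0.45, 0.33 and 0.30 (limma adjusted p = 0.549), and its mRNA level rose by a log2 fold change of 1.84 (SE 0.41, edgeR adjusted p = 0.00118).

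In EEC, Lrrc75a was 0.87, 1.00 and 1.00 in stem cells and 0.11 and 0.12 in EEC, and the adaptor Shc1 was 1.00, 0.65 and 1.00 against 0.17 and 0.25. Neither passed limma (adjusted p = 0.205 and 0.359). Cdx2, a transcription factor of intestinal identity, was 0.27, 0.32 and 0.31 against 1.00 in EEC 1 and 0.36 in EEC 2, so its difference came from 1 library.

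**Figure D5:**
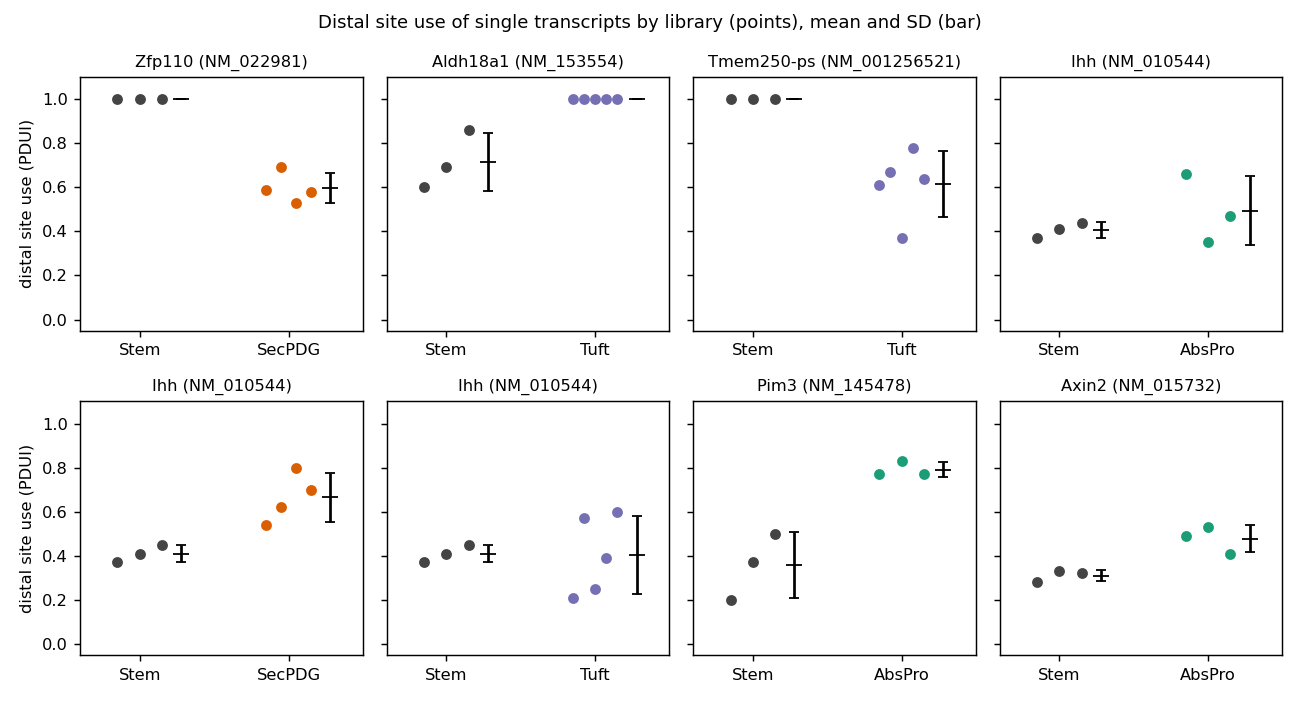
PDUI of 8 pairs of a member and a cell type by library (points, 0 to 1) with the mean and SD (bars) in stem cells and the compared type. Zfp110, Aldh18a1 and Tmem250-ps, the 3 transcripts that passed limma, have 1 cell type at 1.00 in every library, while Ihh overlaps stem cells in AbsPro and Tuft and lies above them in SecPDG.

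Groups of genes with shared roles were set beside the members as a whole, and no transcript of any list passed limma in any of the 5 comparisons. Of the cell cycle and DNA replication list, 15 transcripts were tested against AbsPro and 18 against SecPDG, and none had an unadjusted p under 0.05. Their median difference of PDUI was -0.0200 and -0.0575, beside medians of 0 and 0.00333 for all members. Ccnd1, the cyclin D1 gene, was 0.60, 0.52 and 0.41 in stem cells and 0.39, 0.42, 0.27 and 0.46 in SecPDG, which overlap. Rrm2, a subunit of ribonucleotide reductase, was 0.49, 0.46 and 0.31 against 0.27, 0.14 and 0.39 in AbsPro, which overlap as well.

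Of the list for RNA binding, splicing and 3′ end processing, 41 transcripts were tested against AbsPro and 35 against SecPDG, with medians of -0.00333 and -0.00500. Matr3, an RNA-binding protein of the nuclear matrix, was 0.44, 0.59 and 0.26 in stem cells and 0.14, 0.18, 0.11 and 0.18 in SecPDG (limma unadjusted p = 0.00833, adjusted p = 0.847). It was 1 of 3 SecPDG members of the list without overlap, of 33 with complete values. Of the 3, 1 lay higher and 2 lower, beside 3.13% and 2.87% of all transcripts. The list for chromatin and transcription had 28 and 27 transcripts tested, with 1 unadjusted p under 0.05 in each. Smarca4, the ATPase of a chromatin remodelling complex, was 0.09, 0.17 and 0.07 in stem cells and 0.02, 0.03, 0.05 and 0.05 in SecPDG.

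The SUMO and ubiquitin list, of 24 and 16 transcripts, had no member with an unadjusted p under 0.05 in AbsPro or SecPDG. In Tuft, 14 of its 15 transcripts, from 13 genes, had a higher mean than stem cells, and 1 had a limma unadjusted p under 0.05. Their median difference was 0.0483, beside 0.0127 for all members. Members as a whole also leaned higher in Tuft, with 635 higher and 414 lower of 1064 with complete values. So did shorter regions (593 higher and 464 lower of 1095) and longer ones (353 and 205 of 560). Of the Wnt, Notch, hedgehog, BMP and EGF signaling list, 22 and 17 transcripts were tested, with medians of 0.0117 and 0.00417. With complete values, 1 of 21 lay higher without overlap in AbsPro and 1 of 15 in SecPDG, and none lower. Of all transcripts, 4.24% and 3.13% lay higher and 3.3% and 2.87% lower. The list members without overlap were Axin2, a target and inhibitor of Wnt signaling, and Ihh.

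Axin2 moved in unlike directions between cell types by value. It was 0.28, 0.33 and 0.32 in stem cells, 0.49, 0.53 and 0.41 in AbsPro (limma adjusted p = 0.922), and on average 0.182 ± 0.0887 (SD, n = 5) in Tuft (adjusted p = 0.854).

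The membrane traffic, secretion and endoplasmic reticulum list leaned to lower values in AbsPro, where 24 of 35 transcripts had a lower mean and 10 a higher one, with a median of -0.0367 beside 0 for all members and no unadjusted p under 0.05. In SecPDG it was even, 18 higher and 20 lower. Sar1a, a GTPase of transport from the endoplasmic reticulum, was 1.00, 0.87 and 0.87 in stem cells and 0.38, 0.54, 0.64 and 0.68 in SecPDG. Rab10, a GTPase of vesicle traffic, was 0.55, 0.53 and 0.74 against 0.49, 0.37 and 0.38 in AbsPro. Neither passed limma (adjusted p = 0.847 and 0.922).

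The adhesion, junction and cytoskeleton list, with 43 and 38 transcripts, had 3 members higher and 0 lower without overlap of 42 with complete values in AbsPro (4.24% and 3.3% of all transcripts), and 3 higher and 1 lower of 37 in SecPDG (3.13% and 2.87% of all). Ezr, which links actin to the membrane, was 0.30, 0.33 and 0.40 in stem cells and 0.44, 0.50 and 0.49 in AbsPro. Diaph1, a formin, was 1.00, 1.00 and 0.89 against 0.69, 0.76, 0.47 and 0.74 in SecPDG. Of the list for metabolism, mitochondria and transport, 31 and 28 were tested. Its member Slc25a13, a mitochondrial carrier, was 0.09, 0.21 and 0.32 in stem cells and 0.44, 0.67 and 0.57 in AbsPro. Insig1, a regulator of sterol synthesis, was 0.16, 0.33 and 0.16 against 0.40, 0.42, 0.34 and 0.40 in SecPDG (limma adjusted p = 0.847), and its mRNA level there rose by a log2 fold change of 1.83 (SE 0.34, edgeR adjusted p = 0.000415).

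The mRNA levels of the same genes were compared in the same cell types. By edgeR (adjusted p under 0.01, with 50 or more normalised counts on average), 2 genes with a mid-length transcript were higher and 0 lower of 1786 tested against AbsPro (0.342% and 0.0219% of all 22781 genes). There were 73 higher and 9 lower of 1503 in SecPDG (2.42% and 0.689%), 52 and 45 of 1143 in Tuft (4.5% and 2.03%), 34 and 116 of 879 in enterocytes (5.76% and 7.93%) and 15 and 56 of 461 in EEC (6.79% and 7.46%). With DESeq2's size factors the split in enterocytes turned to 148 higher and 94 lower, beside 2567 and 1114 of all 22781 genes. In EEC it turned to 77 and 54, beside 3152 and 1210 of all genes. The direction of the many small changes in both thus rests on the scaling. Without the count library EEC 1 the EEC split was 38 higher and 36 lower, and without the count library EEC 2 it was 3 and 200 (count libraries are numbered apart from the PDUI columns). The larger changes named below kept their direction under both scalings.

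Among secretory genes, Qsox1, a sulfhydryl oxidase of the secretory pathway, rose in SecPDG by 4.68 (log2 fold change, SE 0.49, edgeR adjusted p = 2.3e-08), while its PDUI was 0.183 ± 0.197 in stem cells and 0.118 ± 0.0150 in SecPDG. Slc12a8, a cotransporter family member, rose by 5.32 (adjusted p = 3.88e-08) with a PDUI of 0.00500 and 0.0350. The alpha tubulin Tuba1a rose by 6.39 in Tuft (adjusted p = 1.66e-08) and stayed at a PDUI of 1.00 and 0.976 on average. In these 3 examples the PDUI means lay within 0.1 of stem cells. That limit is wider than the median difference of members, 0.065 in SecPDG and 0.0613 in Tuft. Slc12a8 stood near the lower limit of the scale in both cell types (limma unadjusted p = 0.00630, adjusted p = 0.815).

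In enterocytes the tubulin gene Tubb5 fell by 3.25 (log2 fold change -3.25, edgeR adjusted p = 1.42e-07) with a PDUI of 0.127 and 0.130, and Rrm1, a subunit of ribonucleotide reductase, fell by 2.82 (adjusted p = 9.92e-08) with 0.0767 and 0.0620. Other genes with changed mRNA differed more in PDUI by value, without passing limma. Gal3st2, a sulfotransferase, rose by 4.41 in SecPDG (adjusted p = 2.11e-06), and its PDUI was 0.0300 ± 0.0361 in stem cells and 0.230 ± 0.0316 in SecPDG (limma adjusted p = 0.675). Slc6a14, an amino acid transporter, rose by 4.02 in enterocytes (edgeR adjusted p = 2.78e-06) with a PDUI of 0.450 ± 0.476 in stem cells and 0.184 ± 0.0251 in enterocytes (limma adjusted p = 0.681). In EEC the mitochondrial aldehyde dehydrogenase Aldh1b1 fell by 3.81 (log2 fold change -3.81, edgeR adjusted p = 1.32e-05), with a PDUI of 0.607 ± 0.0379 and 0.390 ± 0.255 (limma adjusted p = 0.496). The chromatin protein Hmgb3 fell there by 2.77 (log2 fold change -2.77, edgeR adjusted p = 0.000402), with 0.223 ± 0.0451 and 0.0450 ± 0.0636 (limma adjusted p = 0.383).

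By group, the 63 genes with higher mRNA in SecPDG and a tested transcript had a median PDUI difference of -0.000833, and the 8 with lower mRNA 0.0746, beside 0.00333 for the 1379 not called. In enterocytes the 109 with lower mRNA had -0.00733 and the 30 with higher mRNA 0.0117. Of the RNA-binding list, 8 of 17 member genes had lower mRNA in enterocytes and none higher, beside 116 of 879 member genes and 7.93% of all genes lower, and the same 8 were lower with DESeq2's size factors, among them Ptbp1, Srsf2 and Srsf3, which regulate splicing. Of 20 genes for cleavage and polyadenylation factors, taken whether or not they are members, 9 were lower in enterocytes, 5 in EEC, 1 in Tuft and none in AbsPro or SecPDG, and none were higher, beside 7.93%, 7.46% and 2.03% of all genes lower in enterocytes, EEC and Tuft. With the size factors 5 of these factor genes were lower in enterocytes, 4 in EEC, 2 in Tuft and none in AbsPro or SecPDG. Of all 22781 genes, 1114, 1210 and 604 were lower in enterocytes, EEC and Tuft with the size factors. All genes, under either scaling, means every gene tested, also any below the count minimum. The lower factor genes included the cleavage complex genes Cpsf1 and Cstf2 in enterocytes and EEC under both scalings.

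For the limit of span, which is a property of the annotation and not of the values, the nearest transcripts on either side were as follows. Just below, at 999 bases, Ppif was 0.437 on average in stem cells and 0.347 in AbsPro. Ece1, the longest member, was 0.60 and 0.65, and at 2501 bases, just above, Nipbl was 0.230 and 0.117.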

How the data were processed

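Reads were aligned by the authors to mm10 with STAR (2.5.2a, per the submitters' processing notes) and counted on genes with HTSeq (0.6.1p1), and the deposited counts are not normalized. Polyadenylation tables were made by the authors with DaPars, which predicts 1 proximal site per transcript and table. Each deposited PDUI is a fraction per library, rounded to 2 decimals. The tables also hold group means, their difference and p-values, which are the authors' own comparison and were not used. A further 68 columns of long and short form expression per library were not used here, since library columns carry the cell type but no sample name. The PDUI columns are therefore numbered by place and are not tied to the gene count libraries. Splicing tables were not used here.

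Transcripts with a PDUI in at least 2 libraries of each cell type were tested per table with limma 3.58.1 (R 4.3.3) on log2((PDUI + 0.01) / (1 - PDUI + 0.01)), two-sided, with Benjamini-Hochberg adjustment over the whole table at 0.05. Missing values were left out of a transcript's fit and not imputed. Gene counts were tested with edgeR 4.0.16 (quasi-likelihood F test, filterByExpr, TMM) in 1 fit of 22 libraries and matched to members by symbol. SEs of fold changes were taken from the F statistic. Entries that name no gene made up 53.9% to 91.6% of a count file and were left out. Both tests were tried on simulated data.

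Regions were matched to GENCODE vM21 transcripts for 1897 of 2138 members. Members and gene lists were chosen with earlier results of these data known. The rule for named transcripts took Ihh, the transcripts that passed, and those nearest to the limits of span. Because only 3 passed, it was widened after the values were seen to the largest differences without overlap, the smallest p of each list in AbsPro and SecPDG, and the largest mRNA changes. Alternatives were other pseudocounts, scales, thresholds, filters, normalizations and priors, and each library left out. P-values measure the spread between these libraries. The number of reads behind a PDUI is unknown, so no counting interval is given. The results of 2 genes that this rule names are not reported here.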

Additional observations from a re-analysis of the deposited data

Results flagged for a closer look

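Nrp2 in the Tuft comparison had 1 library apart from the rest: Tuft 1 was at 0.5, the next at 0.36, and the other 3 between 0.31 and 0.33. The gap took 73.68% of the range of the 5 Tuft libraries. Of 35 groups of 4 or 5 libraries searched this was the only one, and chance gives about 1 in 20.

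Axin2 lay above all stem cell libraries in AbsPro, by 0.1667 on average, and below all of them in Tuft, by -0.128, at sites 1 base apart. The comparisons share the stem cell libraries, and the difference between AbsPro and Tuft was not tested.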

How the results depend on the processing

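Counts of called members were small and moved with the setting. In SecPDG the count of 1 became 0 with the PDUI itself or a trended and robust prior, and in Tuft the count of 2 became 0 with these, with a pseudocount of 0.05, and with an adjusted p under 0.01 with or without a change of at least 0.25. After the data were seen, centring each library on its median and estimating library weights were added, which gave 5 and 5 calls in SecPDG and, with weights, 4 in Tuft. Leaving out 1 library gave 0 to 2 calls for AbsPro, 1 to 3 for SecPDG, 0 to 3 for Tuft and also for enterocytes, and 0 to 50 for EEC, where the fits with 1 EEC library assume that it varies like stem cells. The cause was not tested. The planned coverage minimum was not run, because the expression columns per library were not used. No paired analysis was possible because the PDUI columns carry no replicate number of the labels. Coverage behind a PDUI is unknown, and a miss of the threshold does not show that ends were alike.

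Genes with changed mRNA level were 2, 82, 97, 150 and 71 in AbsPro, SecPDG, Tuft, enterocytes and EEC. DESeq2's size factors gave 14 (10 higher, 4 lower), 217 (179, 38), 239 (156, 83), 242 (148, 94) and 131 (77, 54), and moved the median log2 fold change of all genes from -0.28 to 0.36 in enterocytes and from -0.31 to 0.52 in EEC. Among all 22781 genes the size factors called 116, 1205, 2262, 3681 and 4362. Without a filter on low counts the split in Tuft was 46 higher and 69 lower, beside 985 and 652 of all 23674 genes. DESeq2's Wald test called 49, 281, 340, 302 and 163. Leaving out 1 library gave 1 to 4, 37 to 70, 56 to 115, 80 to 196 and 46 to 203, with the lowest counts of the last 4 without Stem 1 and the highest in EEC without EEC 2. With the replicate number as a block, the counts were 1 in AbsPro and 153 in Tuft (45 higher, 108 lower), while those of the other comparisons stayed within 1.5 times. Same-numbered libraries had correlations of deviations from -0.176 to 0.146, so the numbers were not taken to pair them.

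Among 56 results on named transcripts, 738 of 767 values under other settings kept direction and side of the threshold. Ihh turned in Tuft from -0.10 on the log2 ratio scale to 0.3938 with library weights and ranged from -0.3941 to 0.2148 with 1 library left out, above 0 without Stem 3 (0.01922), Tuft 1 (0.2148) or Tuft 3 (0.1361). In EEC its change was -0.2806 without EEC 1 and 4.594 without EEC 2, and its mRNA log2 fold change 0.9918 and -0.05059. Named mRNA levels kept both in 411 of 439 values.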
